A study of Dunaliella salina with 18 samples.

Results

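The halotolerant green alga Dunaliella salina was profiled by RNA sequencing after reciprocal changes of salinity, and the comparison described here sets the 3 libraries of the H2L arm at 4h against the 3 libraries of the L2H arm at 4h. These 6 libraries were taken from the 18 of the series by their titles, and every assembled transcript was compared. All groups used strain CCAP 19/3, and each arm was sampled at 0h, 4h and 24h with 3 libraries a time. The arm names come from the sample titles. Read as high-to-low and low-to-high salt, they contradict the condition entries, which call the H2L samples low-salt to high-salt, so neither arm is assigned a direction here. The sources used here give no salt concentrations. They call the libraries biological samples without saying whether each came from a culture of its own, so p-values reflect library-to-library spread that may be partly technical.

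Dunaliella cells have no rigid cell wall and change volume within minutes when the salt outside them changes. They then restore their volume by making glycerol after an upshift of salt or removing it after a downshift, while ion pumps keep internal sodium low. RNA taken a few hours after a shift can carry both the state of the culture before the shift and the response to it. The identifiers of the assembled transcripts are not paired with gene names in the files, and 0 of 43236 matched the reference gene table, so no transcript can be given a function here and transcripts are named by identifier. In a bulk sample, fewer cells that carry a transcript and less of it per cell cannot be told apart.

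The values are abundance signals, judged from their steps to be scaled for transcript length and library depth, and the number of reads behind them is unknown. Library totals were 826087, 813526 and 842410 in H2L at 4h and 758446, 749880 and 792542 in L2H at 4h, which did not overlap (two-sided exact permutation p = 0.1, the smallest that 3 against 3 can give; adjusted p = 0.2 over 3 measures). Transcripts listed at 0 numbered 3969, 3968 and 5479 in H2L and 5901, 5303 and 6570 in L2H (exact permutation p = 0.2, adjusted p = 0.2). The 100 most abundant transcripts held 31.6% to 35.3% of the total in H2L and 28.5% to 31.7% in L2H (exact permutation p = 0.2, adjusted p = 0.2). The titles end in a tag that is alike for libraries 1 and 2 of both arms at 4h but differs between the arms for the third library, so the comparison can be made within a tag only in libraries 1 and 2.

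The third L2H library at 4h stood apart from the other L2H libraries at 4h. Its abundances were placed on a linear scale between libraries 1 and 2 at 0h (0%) and at 4h (100%), over transcripts that changed at least 4-fold and were called between those 4 libraries, averaging 10 or more at the higher time. Over 154 such transcripts that rose, the third L2H library lay at a median of 52.0% at 4h (quartiles 41.9% and 60.2%) and already at 55.0% at 0h. Over 127 that fell it lay at 55.8% at 4h and at 56.5% at 0h. The third L2H libraries of both times were thus about midway, for transcripts of either direction, and close to each other (Pearson's r = 0.967 across transcripts). The third L2H library at 0h was closer to libraries 1 and 2 of L2H at 4h (r = 0.955 and 0.957) than at 0h (0.947 and 0.945). For the third L2H library at 4h these were 0.951 and 0.950 at 4h, and 0.947 and 0.946 at 0h. Both were at least about as close to the 3 L2H libraries at 24h. There r was 0.956, 0.958 and 0.959 for the third library of 0h, and 0.951, 0.954 and 0.96 for that of 4h. Whether the third L2H libraries hold the samples their labels name, unmixed, was not tested. The L2H mean at 4h includes the third library unless stated. The third H2L library behaved differently: over 40 transcripts that rose it lay at -1.87% at 0h and 66.5% at 4h, and over 36 that fell at 10.04% and 83.6%. Results below are therefore given with all libraries and, where they move, within libraries 1 and 2 or without the third L2H libraries.

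Many transcripts differed between the arms at 4h. Limma called 8664 of 34166 tested transcripts (25.4%) at a Benjamini-Hochberg adjusted p under 0.05, of which 4863 were higher in H2L (14.2%) and 3801 were lower (11.1%). The median difference was 0.97 on the log2(value + 1) scale among those higher in H2L, about 1.97-fold, and -0.89 among those lower, about 1.85-fold in the other direction; over all tested transcripts it was 0.07. At least 2-fold differences were found in 2306 transcripts higher in H2L and 1486 lower, at least 4-fold in 265 and 142, at least 8-fold in 58 and 13, and at least 16-fold in 27 and 4. The largest differences were thus more often toward H2L than the calls as a whole. The 3 libraries of each arm did not overlap in 12945 transcripts (37.9%), 7167 with H2L higher (21%) and 5778 with H2L lower (16.9%). Within libraries 1 and 2, limma called 12364 transcripts (36.2%), and 7816 of the 8664 were among them in the same direction. Libraries 1 and 2 were more alike than either was to the third. At 4h Pearson's r between them was 0.967 in each arm, against 0.947 and 0.945 with the third in H2L and 0.951 and 0.950 in L2H. The p-values within libraries 1 and 2 thus rest on the spread of close pairs. When libraries 1 and 2 of every group were averaged into 1 sample, 2296 were called. Which arm held most calls depended on the scaling: 56.1% were higher in H2L with the values as deposited, 46.9% when quantile normalized and 53.4% when scaled by upper quartile.

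**Figure D1:**
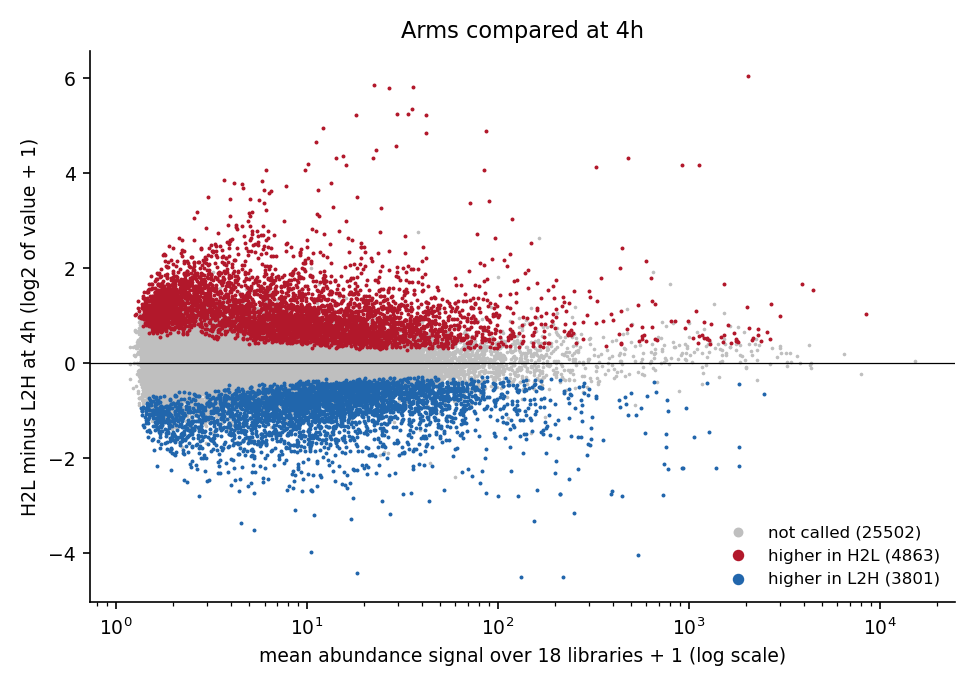
Each point is 1 of 34166 tested transcripts, with its mean abundance signal over 18 libraries (plus 1, log scale) on the x axis and the difference between the arms at 4h (log2 of value + 1, H2L minus L2H) on the y axis. Coloured points were called by limma, 4863 higher in H2L and 3801 higher in L2H; positive differences reach further from 0 than negative ones.

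Direction varied with abundance. Among transcripts with a mean under 1 over the 18 libraries, 735 of 943 called (77.9%) were higher in H2L, and among those with a mean of 10 to 100 the split was 1728 higher and 1850 lower. At a mean of at least 1000, 47 of 122 transcripts were called (38.5%), 39 higher in H2L and 8 lower, and 9 and 5 of these differed at least 2-fold. In libraries 1 and 2 alone, 90 were called, 78 higher and 12 lower, and without the third L2H libraries 69 were, 61 higher and 8 lower. The majority toward H2L among the most abundant transcripts shrank to 16 against 12 after quantile normalization, while upper-quartile scaling left 21 against 6. The excess among the lowest transcripts was 56.5% after quantile normalization. It went with fewer transcripts listed at 0 in 2 of the 3 H2L libraries at 4h, and the part of detection in it was not tested. To be tested a transcript needed a value of 1 in 3 libraries, which the 3 libraries of 1 arm at 4h could supply alone. The part of this filter in the excess was not tested either. The transcripts called higher in H2L held 28.6% to 29.8% of the library total in H2L at 4h and 15.3% to 17.6% in L2H at 4h. Those called lower held 9.07% to 9.41% in H2L, 23.4% and 23.3% in libraries 1 and 2 of L2H, and 17.8% in library 3. These shares describe the calls and were fixed by them. Of the 100 most abundant transcripts in each arm at 4h, 80 were shared.

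The transcript with the largest difference, c66899_g1_i1, was also among the most abundant. It gave 6787, 5631 and 8941 in the H2L libraries at 4h, where its mean ranked 4 of all transcripts, and 149, 107 and 71.7 in the L2H libraries, where it ranked 785. All H2L libraries were far above all L2H libraries, with means in a ratio of 65.3. Lack of overlap between the arms was a condition for naming a transcript at 4h. The log2 difference was 6.05 (SE 0.24, limma adjusted p = 3.29e-10), and it lay between 5.61 and 6.30 over 21 alternatives without losing the call. The arms differed in c66899_g1_i1 before the shift too, with 4233, 3672 and 2921 in H2L at 0h and 124, 86.6 and 81.4 in L2H (log2 difference 5.21, adjusted p = 1.58e-09). The gap at 4h was not distinguishable from that at 0h (difference of the differences 0.84, SE 0.34, adjusted p = 0.127). By 24h the H2L libraries had come down to 1076, 1353 and 1045, and the gap at 4h was larger than that at 24h by 3.26 (SE 0.34, adjusted p = 8.09e-05).

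The second transcript by size, c59800_g1_i1, was close to absent from one arm. Its H2L libraries gave 48.9, 39.6 and 154 at 4h, and its L2H libraries gave 0.58, 0 and 0. The third H2L library was the highest by far, and each H2L library exceeded each L2H library, which the naming rule required. The log2 difference was 5.87 (SE 0.42, limma adjusted p = 1.65e-07), 5.27 without H2L 4h library 3, and it depended on the pseudocount (3.81 with 5 and 8.47 with 0.1) because the L2H values lie near 0. This arm difference was present at 0h as well, with 39.9, 36.1 and 49.0 in H2L against 0.58, 2.24 and 0.54 in L2H (log2 difference 4.41, adjusted p = 6.98e-06).

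The most negative differences belonged to transcripts that were abundant in L2H at 4h. The transcript c48753_g2_i1 gave 38.9, 41.6 and 33.5 in H2L at 4h and 1221, 1157 and 481 in L2H, a log2 difference of -4.50 (SE 1.40, limma adjusted p = 0.0262). The transcript c30669_g1_i1 gave 27.8, 24.6 and 20.5 in H2L and 719, 670 and 375 in L2H, a log2 difference of -4.49 (SE 1.31, limma adjusted p = 0.019). In both, the L2H libraries lay above the H2L libraries without overlap, which the naming rule required. The third L2H library was the lowest of its group. Their errors are wide because the same spread is used for all groups, and in L2H at 0h these transcripts gave 0.54, 0.83 and 547, and 0.58, 0.26 and 354. Within libraries 1 and 2, whose spread is that of close pairs, the log2 differences were -4.85 (adjusted p = 1.3e-09) and -4.68 (adjusted p = 6.22e-09). The call of c48753_g2_i1 was lost when any H2L 4h library was left out (adjusted p = 0.0641, 0.0583 and 0.0606), and when L2H 4h library 1 or 2 was (0.0795 and 0.0762). That of c30669_g1_i1 was lost without L2H 4h library 1 or 2 (0.0595 and 0.0568), and both were lost with libraries 1 and 2 averaged (0.163 and 0.133). A further fit had blocks for library 1, library 2 and the third libraries of each arm, so the third libraries were not compared directly between the arms. There the differences were -3.47 and -3.63 and neither was called (adjusted p = 0.0867 and 0.0563). At 24h the L2H libraries stood at 48.2, 53.6 and 84.6 for c48753_g2_i1 and 26.7, 28.6 and 38.5 for c30669_g1_i1, and the H2L libraries at 2.13 to 2.45 and 2.24 to 2.79.

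**Figure D2:**
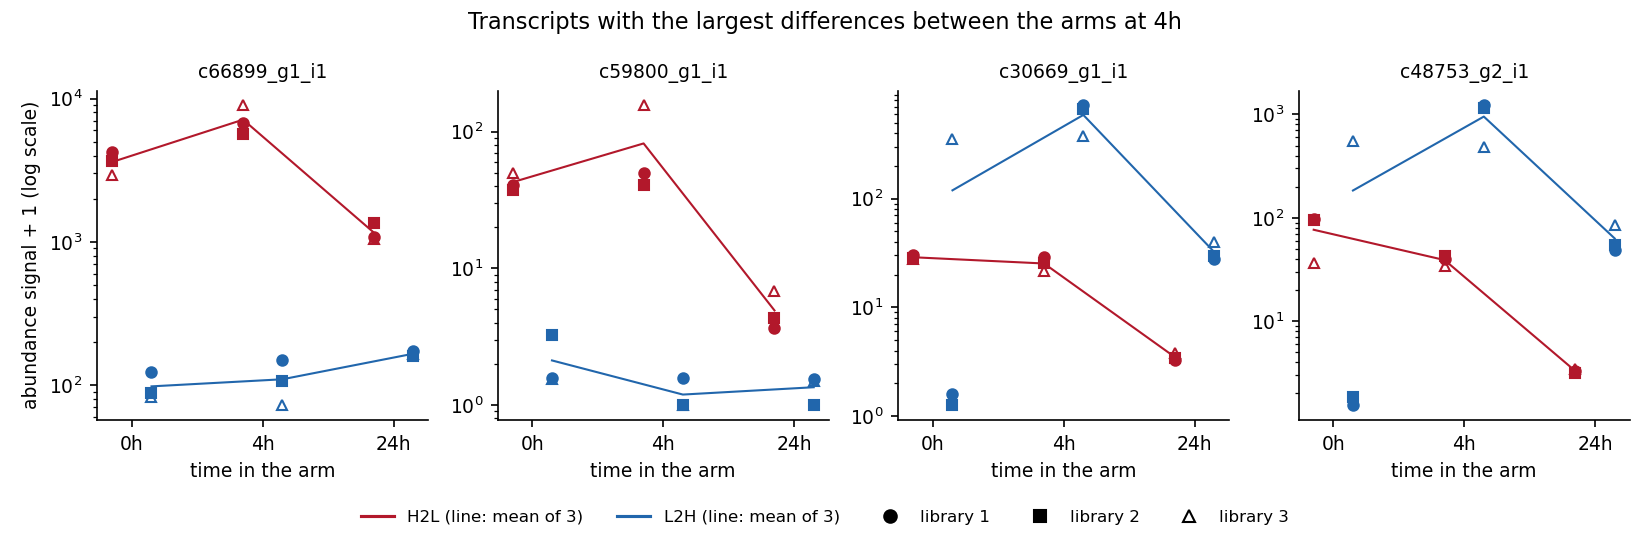
Abundance signal plus 1 (log scale) of the 4 transcripts with the largest differences between the arms at 4h, by time in each arm; symbols are libraries 1, 2 and 3 and lines join the means of 3. The H2L values of c66899_g1_i1 and c59800_g1_i1 lie above the L2H values at 0h and 4h, and c30669_g1_i1 and c48753_g2_i1 are near 1 in libraries 1 and 2 of L2H at 0h, with the third at 354 and 547.

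These examples stand for a wider contrast between the ends of the list. All 27 transcripts at least 16-fold higher in H2L at 4h were also called higher in H2L at 0h. Their median difference was 4.58 at 4h, 4.30 at 0h and 1.67 at 24h. The differences at 4h and 0h come from different libraries, but both calls use 1 spread estimated from all 18 libraries and are not independent. Of the 58 at least 8-fold higher, 48 were called higher at 0h and 1 was called lower, and their median moved from 3.52 at 0h to 3.82 at 4h and 1.23 at 24h. The 13 transcripts at least 8-fold lower in H2L gave another picture: 1 was called lower at 0h, with a median of -0.06 at 0h, -3.37 at 4h and -1.36 at 24h. Within libraries 1 and 2, 8 of these 13 were called higher in H2L at 0h and 1 was called lower. Of all 34166 tested transcripts, 5001 were called higher at 0h in that fit and 3709 lower. The L2H arm's own change from 0h to 4h, which shares the 4h libraries, was called a rise in 9 of the 13, where 1.17% of all tested transcripts were so called. That background moved with the libraries: within libraries 1 and 2, 4887 of 34166 tested transcripts were called a rise in L2H. In that fit 32 of the 36 at least 8-fold lower in H2L were so called. The median L2H change over the 13 was 2.88, or 4.32 within libraries 1 and 2. The H2L change had a median of -0.85. For comparison, 7.87% of tested transcripts were called between the arms at 0h (4.54% higher and 3.33% lower in H2L) and 2.51% at 24h (1.1% higher and 1.41% lower). The direction at 24h turned with the scaling, from 375 higher and 481 lower as deposited to 480 and 339 when quantile normalized and 732 and 212 when scaled by upper quartile. The contrast held when the sets were chosen again leaving out library 3 of L2H at 0h and 4h. There 52 of 75 at least 8-fold higher in H2L were called higher at 0h. Of 26 at least 8-fold lower, 0 were called lower at 0h and 11 were called higher. Over all 34166 tested transcripts, that fit called 2069 higher and 1458 lower at 0h. With libraries 1 and 2 averaged the counts were 34 of 56 higher and 2 of 9 lower, against 156 and 51 of all 34166 tested transcripts. In that fit a rise in L2H from 0h to 4h was called in 0 of the 9, and in 0 of all tested transcripts.

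The arm difference was followed over time for all calls. Of the 8664 transcripts called at 4h, 64.7% had a difference of the same sign at 0h and 76.1% at 24h, against 58.0% and 63.4% of all tested transcripts. Of the 4863 higher in H2L at 4h, 709 were also called higher at 0h and 103 were called lower, and 252 and 21 were so called at 24h. Of the 3801 lower in H2L at 4h, 360 were also called lower at 0h and 68 higher, and 256 and 9 at 24h. Most transcripts called at 4h were therefore not called at the other times, in either direction. A missing call is not by itself a change. The difference at 4h was called other than that at 0h in 29.2% of those higher and 34.0% of those lower. Against 24h the shares were 19.0% and 10.2%. Of all tested transcripts, 10.2% and 4.27% were so called, and these tests share the 4h libraries. The counts of calls at 0h and 24h moved with the third libraries. Without those of L2H at 0h and 4h, of 4474 lower in H2L, 290 were called lower at 0h and 432 higher, and 842 and 23 at 24h. Of 4816 higher in H2L, 616 were then called higher at 0h and 326 lower, and 496 and 40 at 24h. With libraries 1 and 2 alone, of 5317 lower in H2L, 1073 were called lower at 0h and 998 higher, and 2126 and 102 at 24h. Of 7047 higher there, 1932 were called higher at 0h and 983 lower, and 1431 and 318 at 24h. In both fits the opposite calls at 0h and the like calls at 24h took a larger share than with all libraries. The share of like calls at 0h also rose with libraries 1 and 2 alone, to 20.2% of those lower and 27.4% of those higher. With all libraries it was 9.47% and 14.6%, and without the third L2H libraries 6.48% and 12.8%. Calls at 0h over all 34166 tested transcripts grew as well, from 1550 higher and 1139 lower with all libraries. They were 2069 and 1458 without the third L2H libraries, and 5001 and 3709 with libraries 1 and 2 alone. Those lower in H2L at 4h kept their sign at 24h in 86.8% of cases, against 67.7% of those higher, where 56.7% and 43.2% of all tested transcripts had these signs. Without the third L2H libraries of 0h and 4h, 53.4% of calls kept the sign at 0h, close to the 53.1% of all tested transcripts in that fit, and the share was 49.6% among those lower in H2L. At 24h it was 78.6%, against 64.7% of all tested transcripts.

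**Figure D3:**
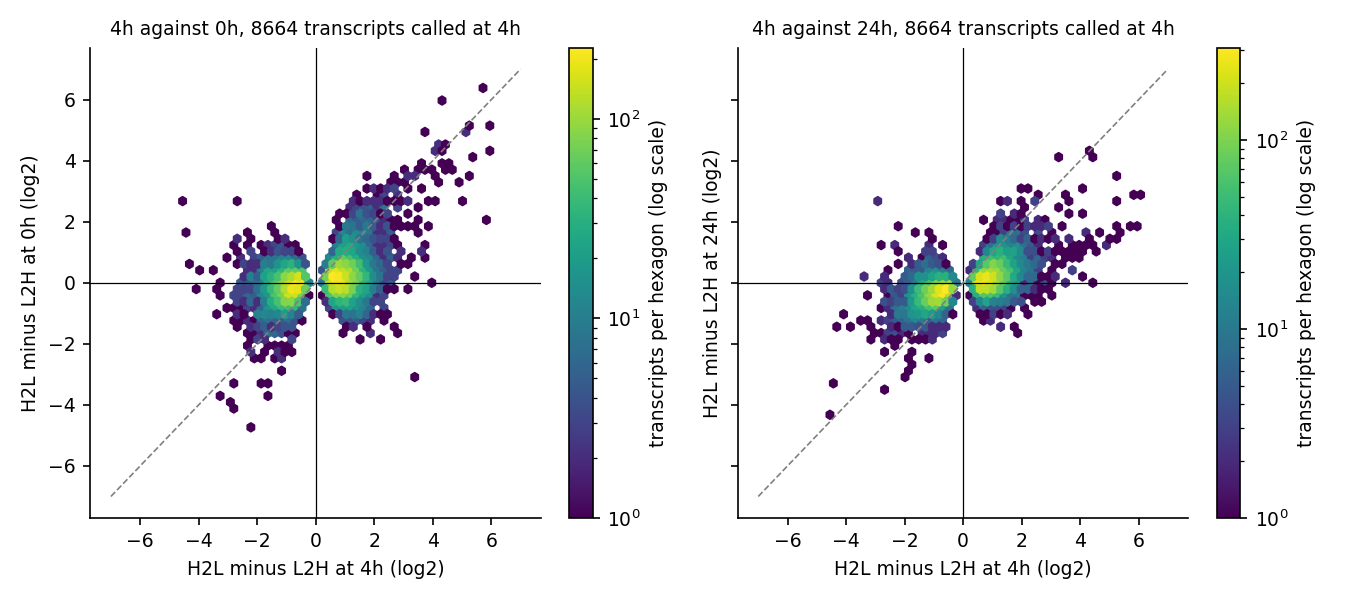
Hexagons count (log scale) the 8664 transcripts called at 4h by their difference between the arms at 4h on the x axis and at 0h (left) or 24h (right) on the y axis, all H2L minus L2H in log2; the dashed line marks equal differences. The transcripts furthest toward H2L lie along the line at 0h and below it at 24h. The 13 at least 8-fold lower in H2L at 4h have a median of -0.06 at 0h. Of these, 7 lie below 0 at 0h, and 1 is at least 8-fold lower there too.

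The arms were least alike at 4h. Pearson's r across transcripts between an H2L and an L2H library was 0.890 to 0.919 at 4h, 0.915 to 0.939 at 0h and 0.937 to 0.946 at 24h, against 0.945 to 0.969 within the groups. The SD of the differences over tested transcripts was 0.70 at 4h, 0.55 at 0h and 0.47 at 24h, and within libraries 1 and 2 it was 0.79, 0.67 and 0.54. Limma called 2689 transcripts between the arms at 0h and 856 at 24h. Within libraries 1 and 2 the numbers were 12364 at 4h, 8710 at 0h and 5865 at 24h, in the same order.

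Whether the difference at 4h was other than the starting one was tested directly, as the arm difference at 4h minus that at 0h. Limma called 3484 transcripts (10.2%) at an adjusted p under 0.05, 1814 shifted toward H2L (5.31%) and 1670 toward L2H (4.89%). Of those shifted toward H2L, 1287 differed between the arms at 4h and not at 0h by their calls, 103 crossed over from higher in L2H to higher in H2L, and 234 differed at 0h and no longer at 4h. The corresponding numbers toward L2H were 1215, 68 and 205. In 1654 of the 1814 and 1493 of the 1670 the arms had moved in opposite directions since 0h, which the test favours because it uses the same libraries. The median change from 0h to 4h was 0.81 in H2L and -0.45 in L2H for those shifted toward H2L, and -0.70 and 0.42 for those shifted toward L2H. The count was 8996 within libraries 1 and 2, 5854 leaving out library 3 of L2H at 0h and 4h, and 15 after averaging libraries 1 and 2, where 4459 had an unadjusted p under 0.05. Leaving out L2H 0h library 1 or 2 gave 1845 and 1786. For L2H 4h library 1 or 2 it gave 1983 and 2080, and for H2L 4h library 1 or 2, 2219 and 2280.

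The largest shift toward H2L was a crossing. The transcript c43988_g1_i2 stood at 4.34, 4.42 and 2.96 in H2L and 64.5, 71.5 and 12.7 in L2H at 0h, and at 42.9, 43.3 and 27.7 in H2L and 1.25, 0.48 and 17.5 in L2H at 4h. The arms thus exchanged their order without overlap at either time, and the third L2H library lay nearest to the H2L libraries at both times. Its arm difference went from -3.05 at 0h to 3.28 at 4h, a shift of 6.33 (SE 0.98, limma adjusted p = 0.00136), which was 8.22 without the third L2H libraries. It was 7.10 without L2H 0h library 3, 7.44 without L2H 4h library 3 and 5.62 without L2H 4h library 2. The transcript c42620_g1_i1 exchanged in the same way: it stood at 24.9, 23.9 and 52.4 in H2L and 172, 153 and 71.3 in L2H at 0h, and at 143, 144 and 135 in H2L and 17.9, 18.2 and 79.9 in L2H at 4h. Its shift was 4.14 (SE 0.63, limma adjusted p = 0.00121), and 4.83 without L2H 4h library 3. Both calls were lost with libraries 1 and 2 averaged (adjusted p = 0.139 and 0.146). At 24h c43988_g1_i2 stood at 39.7 to 43.1 in H2L and 0.93 to 2.05 in L2H, so the exchanged order was still there.

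The largest shifts toward L2H were those of c48753_g2_i1 and c30669_g1_i1, described above. They came to -7.10 (SE 1.99, limma adjusted p = 0.0319) and -6.19 (SE 1.86, limma adjusted p = 0.0436). Within libraries 1 and 2 they were -10.70 and -9.06 (adjusted p = 9.61e-11 and 1.96e-09), and these libraries held the L2H values at 0h under 1. The call of c30669_g1_i1 was lost in 16 of 27 alternatives and that of c48753_g2_i1 in 12 of 27. Leaving out L2H 0h library 3 gave -8.85 for c30669_g1_i1 and -9.88 for c48753_g2_i1. Leaving out L2H 0h library 1 or 2 gave -4.94 and -4.78 for c30669_g1_i1 and -5.65 and -5.77 for c48753_g2_i1, and none of these 4 values was called (adjusted p = 0.119, 0.118, 0.0887 and 0.0913). The calls were also lost without H2L 0h library 1 or 2 or any library at 4h but L2H 4h library 3, at adjusted p of 0.0685 to 0.0903 for c30669_g1_i1 and 0.0506 to 0.072 for c48753_g2_i1, and that of c30669_g1_i1 without H2L 0h library 3 (0.0676).

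The difference at 4h was also set against that at 24h, where the title tags change in both arms. Limma called 1459 transcripts (4.27%), 1029 shifted toward H2L at 4h relative to 24h (3.01%) and 430 toward L2H (1.26%). The majority toward H2L, 70.5%, did not survive other scalings: it was 47.8% with quantile-normalized values and 40.4% with upper quartiles equalized, which moved the median over all tested transcripts from 0.12 to -0.01 and -0.04. The count was 5497 within libraries 1 and 2 and 52 after averaging them, where 3738 had an unadjusted p under 0.05; leaving out library 3 of L2H at 0h and 4h it was 2318. Single libraries mattered too: leaving out H2L 4h library 1 or 2 gave 709 and 907, L2H 4h library 1 or 2 gave 870 and 926, and L2H 24h library 2 gave 789.

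Toward H2L the named transcripts had a larger H2L excess at 4h than at 24h. The transcript c43486_g1_i1 gave 16.7, 20.2 and 36.4 in H2L at 4h and 0.6, 0 and 0 in L2H, and at 24h it gave 0.55, 1.14 and 1.2 in H2L and 1.72, 0.53 and 1.03 in L2H. The difference between the times was 4.43 (SE 0.42, limma adjusted p = 4.23e-05), and the H2L level at 4h was itself below the 64.5, 72.6 and 42.4 of 0h. The transcript c59800_g1_i1 fell within H2L from its values at 4h to 2.67, 3.3 and 5.8 at 24h, while L2H stood at 0.55, 0 and 0.5. H2L was still called higher at 24h (log2 difference 1.84, limma adjusted p = 0.0296). The arm difference at 4h exceeded that at 24h by 4.03 (SE 0.59, limma adjusted p = 0.00119), or 3.43 without H2L 4h library 3.

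Toward L2H the named transcripts were low in most libraries at 4h. The transcript c50329_g5_i1 gave 0.54, 0.82 and 1.15 in H2L at 4h and 1.42, 2.18 and 60.1 in L2H. The transcript c48260_g3_i1 gave 0.7, 0.12 and 0.48 in H2L and 0.71, 1.16 and 38.1 in L2H. In L2H at 4h they were high in the third library alone, and neither was called between the arms at 4h (log2 difference -2.10, adjusted p = 0.0689, and -1.89, adjusted p = 0.0917). Within libraries 1 and 2 these differences were -0.73 (adjusted p = 0.092) and -0.48 (adjusted p = 0.178). Both were high in L2H at 0h (154, 131 and 60.5 for c50329_g5_i1) and in H2L at 24h (104, 145 and 108), so at 4h neither arm was at its high level in libraries 1 and 2. The difference at 4h minus that at 24h was -7.67 for c50329_g5_i1 (SE 1.15, limma adjusted p = 0.00142) and -6.68 for c48260_g3_i1 (SE 1.13, limma adjusted p = 0.00367). Without L2H 4h library 3 they were -6.18 and -5.23. Without L2H 4h library 1 or 2 they were -8.51 and -8.31 for c50329_g5_i1 and -7.49 and -7.32 for c48260_g3_i1. Both calls were lost with libraries 1 and 2 averaged (adjusted p = 0.0604 and 0.0948).

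**Figure D4:**
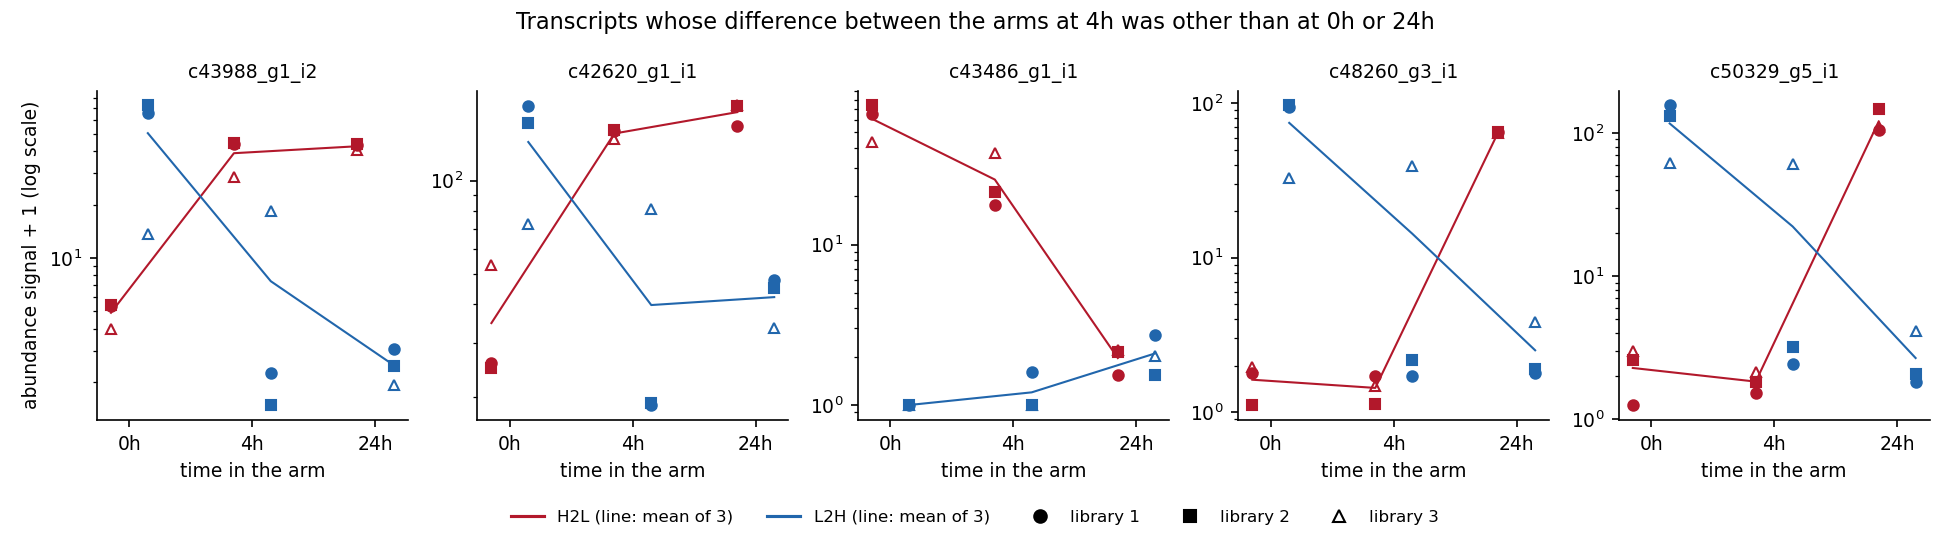
Abundance signal plus 1 (log scale) of 5 transcripts whose difference between the arms at 4h was other than at 0h or 24h, by time in each arm; symbols are libraries 1, 2 and 3 and lines join the means of 3. The arms exchange order between 0h and 4h for c43988_g1_i2 and c42620_g1_i1, and the third L2H library at 4h stands at 38.1 and 60.1 for c48260_g3_i1 and c50329_g5_i1.

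The third libraries allow the calls of libraries 1 and 2 to be looked at in libraries not used to make them. Over the 12364 transcripts called between the arms at 4h within libraries 1 and 2, the third libraries differed in the same direction in 10445 (84.5%), against 68.6% of all tested transcripts. The share was 81.7% for those higher in H2L and 88.2% for those lower. Over the 708 that differed at least 4-fold it was 93.1%. The differences were smaller in the third libraries, with a slope of 0.56 on those of libraries 1 and 2. The third libraries carry different title tags in the 2 arms, so a tag and the arm cannot be told apart there. Those of L2H at 0h and 4h also lay about midway between libraries 1 and 2 at 0h and at 4h. The part of that position in these shares and slopes was not tested. At 0h the corresponding share was 63.3% of 8710 transcripts with a slope of 0.31, against 55.2% of all tested transcripts. At 24h it was 73.9% of 5865 with a slope of 0.45, against 56.7%.

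**Figure D5:**
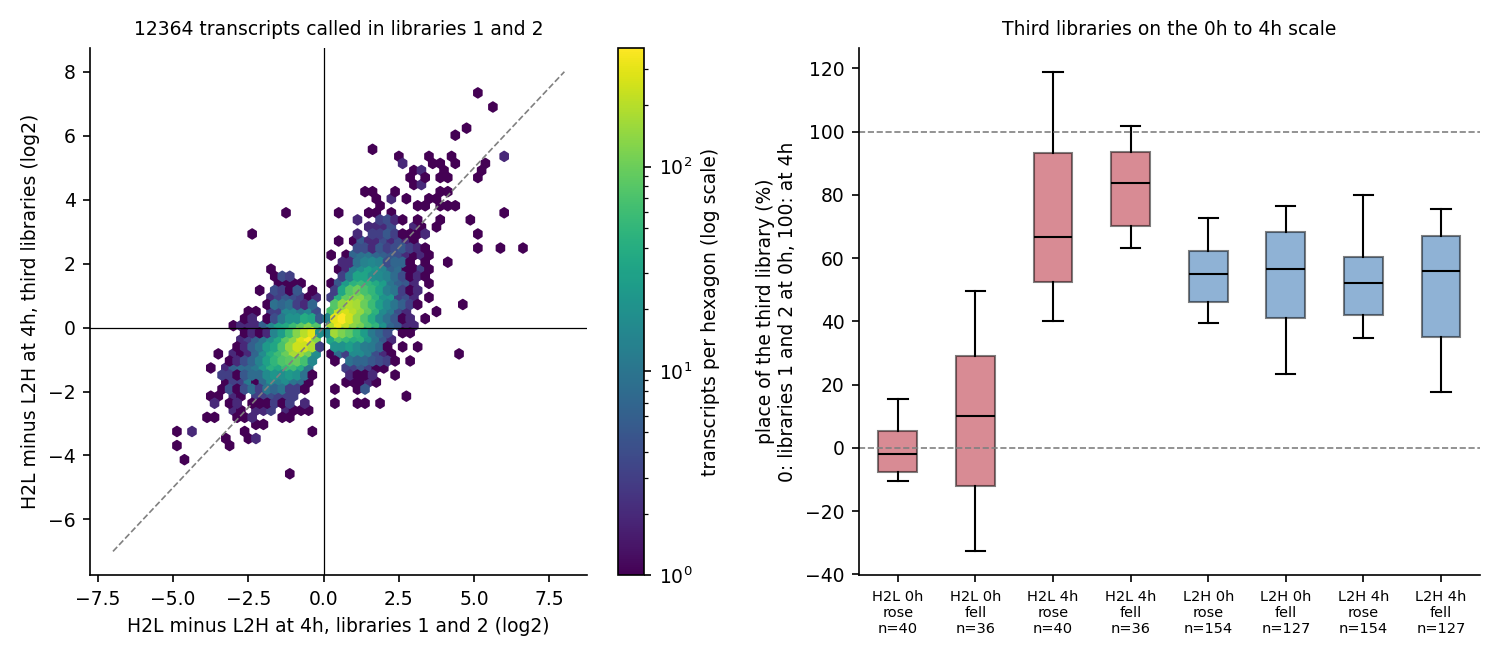
Left, hexagons count (log scale) the 12364 transcripts called within libraries 1 and 2 at 4h by their difference there (x axis) and in the third libraries (y axis), both H2L minus L2H in log2, with equality dashed; 84.5% have the same sign. Right, place of library 3 of each arm between libraries 1 and 2 at 0h (0%) and 4h (100%), as medians with quartile boxes and whiskers from the 10th to the 90th percentile; the L2H medians lie between 52.0% and 56.5% at both times.

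Presence in one arm alone was rare at appreciable levels. Only 2 transcripts were listed at 0 in all L2H libraries at 4h while averaging 10 or more in H2L, and 0 were the other way round. At 0h the numbers were 2 and 0 and at 24h 0 and 0. At an average of 1 or more in the other arm, 447 of all 43236 transcripts were listed at 0 throughout L2H at 4h and 159 throughout H2L. The numbers were 250 and 95 at 0h and 199 and 89 at 24h. At 0h, 4h and 24h alike the number at 0 throughout L2H was the higher one. Single libraries at 4h listed 5901, 5303 and 6570 transcripts at 0 in L2H, against 3969, 3968 and 5479 in H2L. The part of this in the counts at 4h was not tested. Transcripts that share the first part of their identifier belong to 1 component of the assembly and may share reads. Of 5422 components with at least 2 tested transcripts, 1181 held at least 2 called at 4h; these were all in 1 direction in 871 (73.8%) and in both directions in 310. The signals of such transcripts are uncertain where reads could be divided between them.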

How the data were processed

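The RNA-seq data cover 18 Dunaliella salina libraries, of which 6 enter the comparison at 4h and the others supply the spread and the other times. Per the submitters' processing notes, the tools were FastQC, RSEM and Bowtie2; versions are not given in the sources used here. In 1 table the authors deposited values that are an abundance signal. Scaling for transcript length and depth was inferred from the values, whose smallest steps depend on the transcript; the labels do not state whether they are FPKM or TPM. Count models were not used on such values, and the reads behind each are unknown. Columns were matched to samples by title, and 0 columns belonged to no sample.

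Of 43236 transcripts, 34166 (79.0%) reached a value of 1 in 3 or more libraries and were tested. A model with a mean for each of 6 groups was fitted to log2(value + 1) of all 18 libraries with limma 3.58.1 (R 4.3.3), letting the prior variance follow abundance, and two-sided p-values were adjusted by Benjamini-Hochberg over all tested transcripts; a log2 difference understates that of low transcripts. The fit was tested on simulated data. The simulated libraries had independent noise, so that test does not bear on the closeness of libraries 1 and 2 or the place of the third. Totals, zeros and top shares of the libraries were set against each other with exact permutation tests. Named transcripts are, in each of 3 comparisons, the 2 largest differences in each direction among the calls whose highest group averaged 10 or more and, at 4h, whose libraries did not overlap between the arms. Sets of at least 8-fold or 16-fold difference, the place of the third libraries and the split by abundance were described after the values were seen. The comparison, rules and alternatives were chosen with earlier results of these data known. No gene lists were used, since identifiers carry no names.

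Alternatives changed 1 choice at a time. Libraries were limited to the groups compared or to libraries 1 and 2, averaged, left out singly, or given a block. The blocks were library 1, library 2 and, separately for each arm, the third libraries. Values were quantile normalized, scaled by upper quartile, left unfiltered, filtered at 10, or given pseudocounts of 0.1 and 5. Further fits used array weights, no trend, a 2-fold minimum or an adjusted p under 0.01.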

Additional observations from a re-analysis of the deposited data

Results flagged for a closer look

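Transcripts are listed here because the difference between the arms at 4h was itself other than the difference at another time, by a test of that change. Against 0h, 3484 transcripts changed their arm difference. The named ones shifted by 6.33 (c43988_g1_i2) and 4.14 (c42620_g1_i1) toward H2L, and by -6.19 (c30669_g1_i1) and -7.10 (c48753_g2_i1) toward L2H, on the log2 scale. Against 24h, 1459 changed, with named values of 4.43 (c43486_g1_i1), 4.03 (c59800_g1_i1), -6.68 (c48260_g3_i1) and -7.67 (c50329_g5_i1). For c48260_g3_i1 and c50329_g5_i1 the third L2H library at 4h stood at 38.1 and 60.1, against 2.18 or less in the other L2H libraries at 4h.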

How the results depend on the processing

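None of the named transcripts changed sign in any alternative run. The calls between the arms at 4h, 8664, were 2296 after averaging libraries 1 and 2, 5380 with a minimum value of 10, where only 13583 transcripts were tested, 13707 with array weights, 3792 with a 2-fold minimum and 4573 at an adjusted p under 0.01, and 5898 to 8815 without single libraries. For the arm difference at 4h against 0h, 3484 calls became 8996 within libraries 1 and 2, 15 with them averaged, 5854 leaving out the third libraries of L2H at 0h and 4h, 8975 with array weights, 992 at 0.01 and 1786 to 4871 without single libraries. Against 24h, 1459 calls became 5497, 52, 2318, 5365, 371 and 709 to 1860 under the same alternatives. With blocks for library 1, library 2 and the third libraries of each arm the 3 counts were 9636, 4477 and 2455. The deviations of same-numbered libraries from their group means correlated at -0.006 and 0.064 across the arms at 4h; these libraries share a number and a title tag whose meaning the labels do not give. The share of calls at 4h with the same sign at 0h, 64.7%, was 57.1% within libraries 1 and 2, 73.7% with them averaged, 53.4% without the third L2H libraries, 59.5% with array weights and 55.5% to 68.9% without single libraries. At 24h, 76.1% became 74.4%, 78.8%, 78.6%, 73.5% and 74.1% to 78.9% in that order, and 77.5% after both quantile normalization and upper-quartile scaling. Averaging and leaving out libraries leave fewer samples, and the cause of the other changes was not tested. Depth limits low transcripts, but its size is unknown.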
